A study of Mus musculus with 7 samples.

Results

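The TGF-beta ligand, its receptors and the SMADs were described in LSK cells as 10 genes, namely Tgfb1, Thbs1, Tgfbr1, Tgfbr2, Tgfbr3, Eng, Smad2, Smad3, Smad4 and Smad7. They were chosen by symbol from the 48440 genes of the deposited table, and all 10 were found. LSK cells are bone marrow (BM) cells without lineage markers that carry Sca1 and cKit, a gate that holds hematopoietic stem cells (HSCs) and multipotent progenitors. RNA was sequenced from LSK cells of BM chimeras, which are C57BL/6 mice that had been lethally irradiated (9.5 Gy) and then given unfractionated BM of wild-type donors (4 libraries) or of donors with a constitutive, endonuclease-mediated PROSER1 KO (3 libraries), with collection 77 days later. PROSER1 is a partner of the TET enzymes, which oxidize methylated cytosine in DNA, and the comparison asks how RNA in LSK cells differs when the transplanted marrow lacks it. All recipients were irradiated C57BL/6 mice. The age and sex of the animals, the number of donors, pooling of recipients and a sort gate on donor origin are not given in the sources used here. Cells of recipient origin could therefore not be told apart from donor cells here.

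TGF-beta is secreted as a latent dimer bound to its own propeptide and has to be activated, for instance by integrins or by thrombospondin, before it can bind. It then joins the type II receptor (TGFBR2), which phosphorylates the type I receptor (TGFBR1), and TGFBR1 in turn phosphorylates SMAD2 and SMAD3. These bind SMAD4 and enter the nucleus, where they regulate transcription, and SMAD7, itself a target of the pathway, blocks the receptor. In BM, TGF-beta is known for holding HSCs in quiescence.

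The libraries held 33143619 to 45140743 read pairs on genes, and 3 read pairs, taken as the most that a 0 could hide, equal 2.54 to 3.48 normalized counts (counting error only). A normalized count is the number of read pairs divided by 1 size factor per library. Proser1, the targeted gene, was not lower in the libraries labelled PROSER1 KO. Wild-type libraries had 2019, 2153, 2103 and 2077 normalized counts of it, and PROSER1 KO libraries 2464, 2359 and 2338 (adjusted p = 0.204 from limma), so that every direction given here rests on the labels. Markers of the LSK gate were present, with Kit at 25530 to 32360 and Ly6a (Sca1) at 3961 to 6822 in the 7 libraries. Markers of other cell types were counted as well. Plasma cell markers, mostly Jchain, summed to 161800 to 410500 in wild-type and 190000 to 285100 in PROSER1 KO. Stromal and endothelial markers summed to 3746 to 4810 and 4654 to 6212, and megakaryocyte and platelet markers to 9947 to 11490 and 11120 to 13720, respectively. Pdgfrb was the highest of the stromal and endothelial markers in every library. Of the 11 marker lists, 0 held a gene past the threshold, beside 0.258% of all genes tested. At that share, 0 calls in such short lists says little about which cells were present. Estimates were higher in PROSER1 KO for 0 of 7 plasma cell markers tested, beside 50.6% of all genes. They were higher for 6 of 9 stromal and endothelial markers and 9 of 10 megakaryocyte and platelet markers. The part of these cells in the results was not tested. In such bulk samples, fewer cells of a type and less RNA per cell cannot be told apart.

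None of the 10 genes was differentially expressed. All 10 passed the filter on low values (a mean of 10 normalized counts) and were tested. With a threshold of an adjusted p under 0.05 and a fold change above 1.5, limma called 0 of 10, beside 0.258% of the 16251 genes tested (0.123% higher and 0.135% lower in PROSER1 KO). edgeR also called 0 of 10, beside 0.246% of its genes, and DESeq2 0 of 10, beside 0.873%. At an unadjusted p under 0.05 limma again found 0 of 10, beside 9.73% of all genes, and the lowest adjusted p was 0.529. The estimates were higher in PROSER1 KO for 6 genes and lower for 4, beside 50.6% higher over all genes. Their median was 0.0339 on the log2 scale, beside 0.00148 over all genes, and their median size was 0.0793, beside 0.0946. For 9 of the 10 genes the whole 95% interval of the fold change lay between 0.731 and 1.29, and thus within 1.5-fold in either direction. The exception was Thbs1, the gene with the fewest read pairs.

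**Figure D1:**
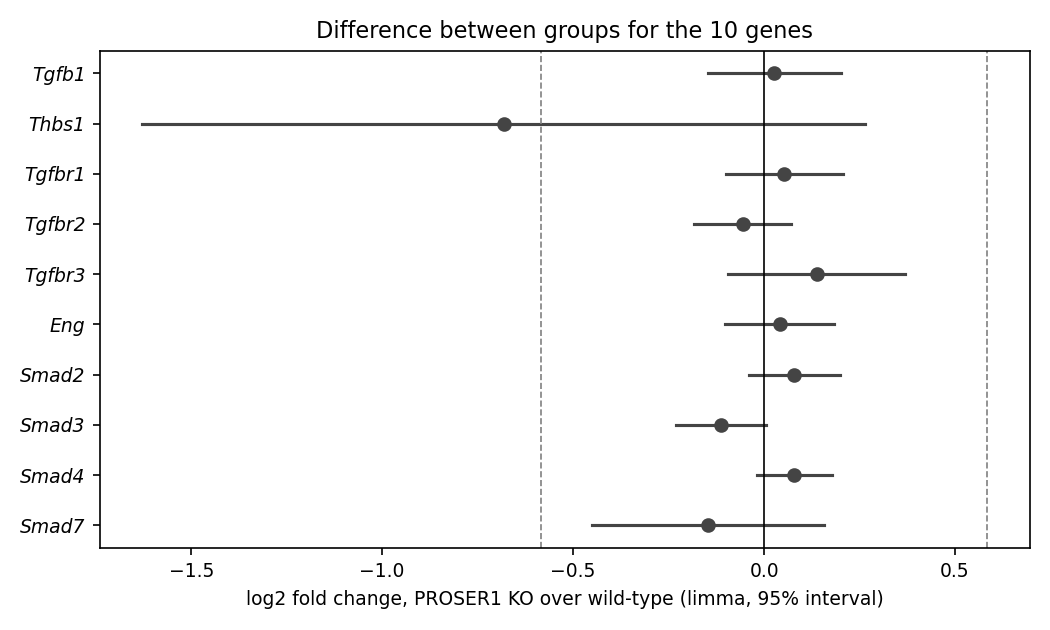
Log2 fold change of each of the 10 genes, PROSER1 KO over wild-type (x axis), with points for the limma estimate and bars for its 95% interval; dashed lines mark a 1.5-fold change. The bars of 9 genes lie between the dashed lines, whereas that of Thbs1 runs from -1.63 to 0.26.

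Upstream sequence is shown for Tgfb1, the member with the highest level per kb of exon, and Smad3, the member with the lowest adjusted p. Both are from RefSeq (GRCm38.p6) and give the 250 bases before the transcription start, 5′ to 3′, with capitals for GC boxes (GGGCGG or CCGCCC), the sites that factors of the Sp family bind.
Tgfb1 (chr7:25686752-25687001, forward strand): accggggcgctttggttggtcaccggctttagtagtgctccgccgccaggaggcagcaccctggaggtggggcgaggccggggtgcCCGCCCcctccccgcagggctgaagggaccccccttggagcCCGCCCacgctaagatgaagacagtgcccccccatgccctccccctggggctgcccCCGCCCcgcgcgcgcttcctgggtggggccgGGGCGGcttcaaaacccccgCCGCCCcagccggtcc
Smad3 (chr9:63757995-63758244, reverse strand): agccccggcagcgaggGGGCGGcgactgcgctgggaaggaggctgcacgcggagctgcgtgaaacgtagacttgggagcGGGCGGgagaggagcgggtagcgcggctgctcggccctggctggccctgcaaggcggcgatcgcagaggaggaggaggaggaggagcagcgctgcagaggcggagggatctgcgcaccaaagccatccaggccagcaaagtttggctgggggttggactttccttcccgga

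The Tgfb1 window held 5 GC boxes at a GC content of 75.2%, and the Smad3 window held 2 at 69.2%. RefSeq windows were found for 5 of the 10 members, 6 windows in all. The first Tgfbr1 window (74.8% GC) had 2 GC boxes, whereas the second Tgfbr1 window (52.8% GC) and those of Eng (62.4% GC) and Tgfbr2 (58.4% GC) had 0. Over 32851 windows of the same length, 32.7% held a GC box and the median GC content was 52.4%. TATAAA, the TATA box, was found on neither strand of the 6 windows, beside 12.4% of all windows. CAGACA, a form of the CAGA box that SMAD3 and SMAD4 bind, was found in the second Tgfbr1 window alone, beside 17.1% of all windows with it on either strand. Windows for Thbs1, Tgfbr3, Smad2, Smad4 and Smad7 were not matched.

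Tgfb1 (ENSMUSG00000002603, GRCm38 chromosome 7, 25687002 to 25705077) encodes the ligand and had the highest level of the 10 genes. Wild-type replicates 1 to 4 had 9527, 9927, 11284 and 8823 normalized counts, and PROSER1 KO replicates 1 to 3 had 10512, 10045 and 9575; all later values follow this order. The 3 PROSER1 KO libraries lay inside the wild-type range. Log2 fold changes from limma are differences between group means of log2(normalized count + 1), so they can differ from the log2 ratio of the printed means. Group means were 9890.2 ± 1035 (SD, n = 4) and 10044 ± 469 (SD, n = 3). The log2 fold change was 0.03 (95% interval -0.15 to 0.20, adjusted p = 0.946 from limma), and its sign turned with wild-type replicate 4 (-0.026) or PROSER1 KO replicate 1 (-0.0064) left out.

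Thbs1 (ENSMUSG00000040152, GRCm38 chromosome 2, 118111876 to 118127133) encodes thrombospondin 1, an adhesive glycoprotein of platelets and matrix that can release TGF-beta from its latent complex. It was the least expressed of the 10, with 43 to 192 read pairs per library. Normalized counts were 62.5, 93.8, 99.999 and 223 in wild-type against 87.6, 80.4 and 41.3 in PROSER1 KO. Wild-type replicate 4 stood highest and PROSER1 KO replicate 3 lowest, and the other 5 libraries of both groups lay between 62.5 and 99.999. The means of 120 ± 70.5 (SD, n = 4) and 69.8 ± 24.9 (SD, n = 3) gave a log2 fold change of -0.68 (95% interval -1.63 to 0.26, adjusted p = 0.641 from limma). The estimate was -0.33 without wild-type replicate 4 and -0.35 without PROSER1 KO replicate 3. Wild-type replicate 4 also had the highest sum of plasma cell markers (410500), whereas PROSER1 KO replicate 3 had the next highest (285100). Megakaryocyte and platelet markers summed to 10630 in wild-type replicate 4, against 9947 to 11490 in the other wild-type libraries. In PROSER1 KO replicate 3 they summed to 11120, against 13720 and 12600 in replicates 1 and 2. The part of these cells in the Thbs1 level was not tested. Reads shared with Gm29233, which overlaps Thbs1 on the other strand, make the count uncertain, since the use of strand in counting is not stated.

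The signalling receptors differed little between the groups. Tgfbr2 (ENSMUSG00000032440, GRCm38 chromosome 9, 116084293 to 116175360), the type II receptor that binds the ligand first, had normalized counts of 3612, 3659, 4062 and 3737 in wild-type compared with 3547, 3496 and 3825 in PROSER1 KO. PROSER1 KO replicates 1 and 2 lay below the wild-type range and replicate 3 inside it. With means of 3768 ± 203 (SD, n = 4) and 3623 ± 177 (SD, n = 3), the log2 fold change was -0.06 (95% interval -0.18 to 0.07, adjusted p = 0.795 from limma). Tgfbr1 (ENSMUSG00000007613, GRCm38 chromosome 4, 47353222 to 47414931) encodes the type I receptor kinase that phosphorylates SMAD2 and SMAD3. It had 1965, 2221, 2226 and 2325 in wild-type versus 2161, 2231 and 2398 in PROSER1 KO. Wild-type replicate 1 was the lowest library and PROSER1 KO replicate 3 the highest, and the groups overlapped. With means of 2184 ± 154 (SD, n = 4) and 2263 ± 122 (SD, n = 3), the log2 fold change was 0.05 (95% interval -0.10 to 0.21, adjusted p = 0.857 from limma).

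The coreceptors bind ligand without a kinase of their own. Eng (ENSMUSG00000026814, GRCm38 chromosome 2, 32646595 to 32682669), endoglin, is known from endothelium and from HSCs. It had 5248, 5737, 6214 and 5727 in wild-type, with 5856, 5589 and 6227 in PROSER1 KO, so that the groups overlapped almost completely. The means of 5731 ± 394 (SD, n = 4) and 5891 ± 320.4 (SD, n = 3) gave a log2 fold change of 0.04 (95% interval -0.10 to 0.18, adjusted p = 0.889 from limma), which fell to about 0 without wild-type replicate 1 or PROSER1 KO replicate 3. Cdh5, a defining gene of endothelium, had 33.4 to 258 in the same libraries. Other endothelial markers of the list had more, with Kdr at 96.5 to 392, Emcn at 688 to 1077 and Stab2 at 312 to 1115. The part of endothelial cells in the Eng level was not tested. Eng overlaps Gm26236, Gm47291 and Mir1954 on its own strand and Fpgs on the other, and reads that they share could not be told apart here. Tgfbr3 (ENSMUSG00000029287, GRCm38 chromosome 5, 107106570 to 107289629) encodes betaglycan, which presents ligand to TGFBR2. It had 1185, 1333, 1045 and 1005 in wild-type against 1349.9, 1245 and 1158 in PROSER1 KO. PROSER1 KO replicate 1 was highest and wild-type replicates 3 and 4 were lowest, with overlap of the other 4 libraries. Its means were 1142 ± 149 (SD, n = 4) and 1250.8 ± 96.2 (SD, n = 3), with the largest increase of the 10 estimates (log2 fold change 0.14, 95% interval -0.09 to 0.37, adjusted p = 0.707 from limma). Tgfbr3 overlaps 3 predicted genes on its own strand (Gm42900, Gm43422 and Gm43423), which makes its count uncertain.

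In Smad2, Smad3 and Smad4 the SD was at most 4.66% of the mean in either group, and Smad3 and Smad4 were the members of the 10 whose groups did not overlap. That is 2 of 10 genes, beside 10% of all genes tested. Smad3 (ENSMUSG00000032402, GRCm38 chromosome 9, 63646767 to 63757994), a receptor-regulated SMAD that binds DNA, had normalized counts of 3862, 4016, 4257 and 3955 in wild-type compared with 3801, 3841 and 3523 in PROSER1 KO. Every PROSER1 KO library lay below every wild-type library, although PROSER1 KO replicate 2 and wild-type replicate 1 were close. With means of 4023 ± 169 (SD, n = 4) and 3722 ± 174 (SD, n = 3), it differed by -0.11 on the log2 scale (standard error 0.053, 95% interval -0.23 to 0.0059, adjusted p = 0.529 from limma). Its estimate stayed between -0.14 and -0.07 with any 1 library left out.

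Smad4 (ENSMUSG00000024515, GRCm38 chromosome 18, 73639009 to 73703780) encodes the common partner of the receptor-regulated SMADs and varied least among wild-type libraries, with an SD of 1.65% of its mean. It overlaps AC132418.2 on the other strand, with the same uncertainty as Eng. It had 3511, 3400.3, 3516 and 3435 in wild-type versus 3793, 3634 and 3560.0 in PROSER1 KO. Here every PROSER1 KO library lay above every wild-type library. With means of 3466 ± 57.1 (SD, n = 4) and 3662 ± 119 (SD, n = 3), the log2 fold change was 0.08 (standard error 0.044, 95% interval -0.02 to 0.18, adjusted p = 0.600 from limma). A two-sided exact permutation test over the 35 assignments of 7 libraries to groups of 4 and 3 gave p = 0.0286, the smallest that 4 against 3 libraries allow, for Smad4, and p = 0.0571 for Smad3. For the other 8 genes these p-values were higher, up to 0.714, and none was adjusted.

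Smad2 (ENSMUSG00000024563, GRCm38 chromosome 18, 76241580 to 76310963) encodes the other receptor-regulated SMAD of this branch. Normalized counts were 1974, 2168, 2049 and 2010.2 in wild-type against 2092, 2204 and 2201 in PROSER1 KO. Wild-type replicate 2 lay among the PROSER1 KO libraries, and the other wild-type libraries were below them. With means of 2050.5 ± 84.2 (SD, n = 4) and 2166 ± 64.3 (SD, n = 3), the log2 fold change was 0.08 (95% interval -0.04 to 0.20, adjusted p = 0.672 from limma).

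Smad7 (ENSMUSG00000025880, GRCm38 chromosome 18, 75367529 to 75395935) encodes the inhibitory SMAD. It had 1294, 992, 1001 and 998 in wild-type compared with 1179, 828 and 909 in PROSER1 KO. Replicate 1 was the highest library in both groups, and the other 3 wild-type libraries lay between 992 and 1001. With means of 1071 ± 149 (SD, n = 4) and 972 ± 183 (SD, n = 3), the log2 fold change was -0.15 (95% interval -0.45 to 0.16, adjusted p = 0.773 from limma). The estimate was -0.29 without PROSER1 KO replicate 1 and -0.04 without PROSER1 KO replicate 2. Junb, an immediate early gene, was also highest in wild-type replicate 1, at 5172 against 1769 to 2633 in the other wild-type libraries. The sum of T and innate lymphoid markers was highest in replicate 1 of both groups (6776 and 7041, against 3359 to 4395 elsewhere). The erythroid sum was so too (6757 and 5897, against 4612 to 5333), whereas the other marker lists were not. The part of these cells in the Smad7 level was not tested. Smad4, Smad7 and Smad2 lie in this order within a stretch of chromosome 18, with gaps of 1664 kb and 846 kb, and 2 of the 3 estimates were positive.

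**Figure D2:**
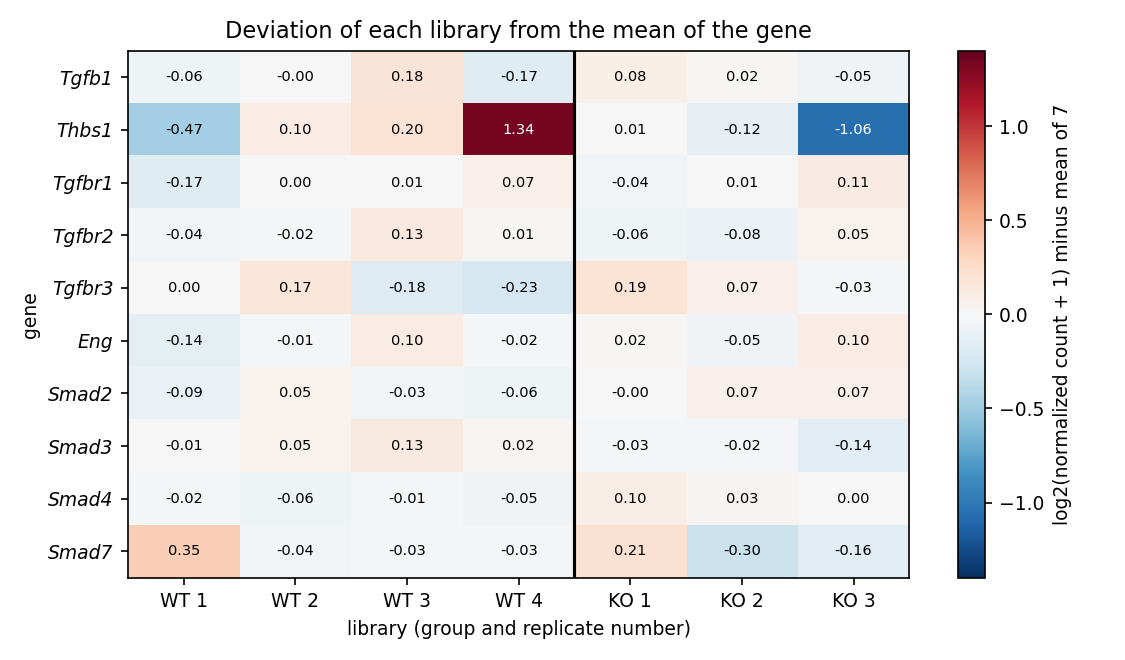
Deviation of each library (columns) from the mean over the 7 libraries for each of the 10 genes (rows), as log2(normalized count + 1), printed in each cell and shaded from blue (low) to red (high). Thbs1 carries the extremes, at 1.34 in wild-type replicate 4 and -1.06 in PROSER1 KO replicate 3, and Smad7 is at 0.35 in wild-type replicate 1, whereas most other cells are close to 0.

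Levels between genes were compared per kb of exon, with lengths from GENCODE M21, a different release from the one used for counting, so that levels per kb are approximate. Mean levels in wild-type were 1962 normalized counts per kb for Tgfb1, 1416 for Eng, 934 for Smad4, 726 for Smad3, 460.2 for Tgfbr2, 334 for Tgfbr1, 237 for Smad7, 234 for Smad2, 175 for Tgfbr3 and 19.7 for Thbs1. Neighbors in this order had ranges over the 7 libraries that did not overlap, except Smad7 (183 to 286) and Smad2 (225 to 251.0), of which Smad7 was the higher in 2 of 7 libraries. Smad7 also ranged across Tgfbr3 (154 to 206). Thus the ligand was the most expressed gene and its activator Thbs1 the least, with Tgfbr3 at 4.19 to 26.0 times the level of Thbs1 in each library. Levels depend on the exon length used. With the longest transcript in place of all exons, the level of Tgfb1 in wild-type was 3844 per kb.

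**Figure D3:**
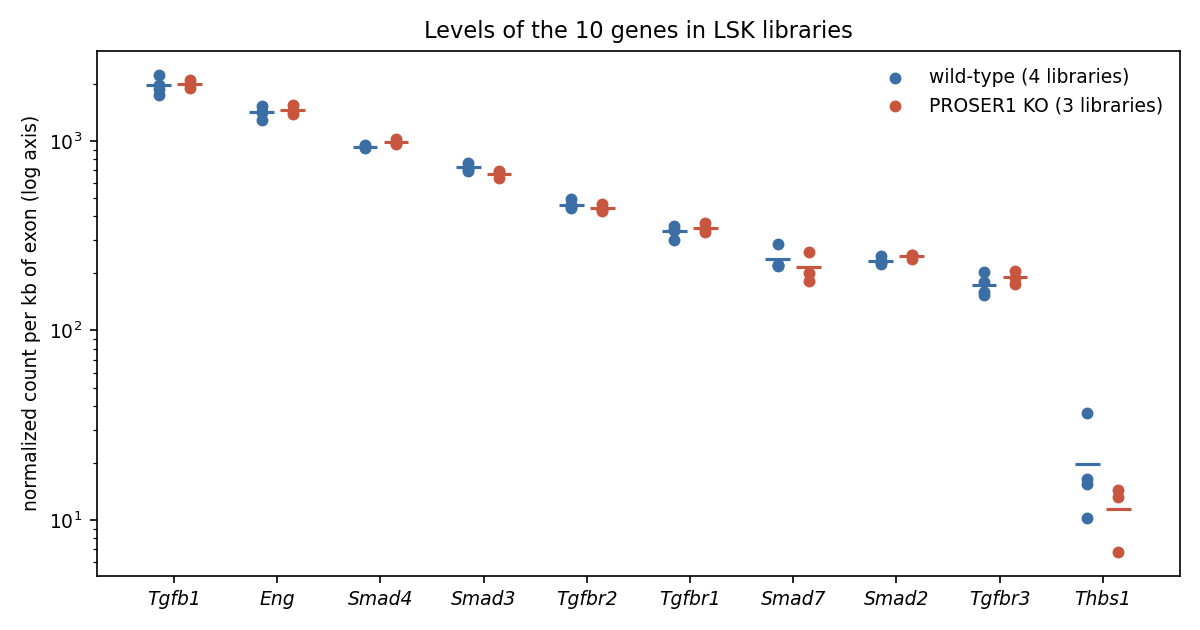
Normalized count per kb of exon (y axis, log scale) for the 10 genes, with a point per library (4 wild-type, blue, and 3 PROSER1 KO, red) and lines at the group means. Tgfb1 is highest at 1750 to 2238 and Thbs1 lowest at 6.80 to 36.7, and the groups lie close together for the other genes.

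Ratios within the pathway were formed in each library from these levels. Smad2 stood at 0.323, 0.341, 0.304 and 0.321 of Smad3 in wild-type and at 0.347, 0.362 and 0.394 in PROSER1 KO. All PROSER1 KO libraries were above all wild-type libraries, with means of 0.322 ± 0.015 (SD, n = 4) and 0.368 ± 0.024 (SD, n = 3). This ratio was looked at because both proteins are substrates of TGFBR1, and it was not tested. Smad3 alone also did not overlap between the groups, so that the ratio is no separate observation. How often ratios of other gene pairs do not overlap was not counted. The ratio of Tgfbr1 to Tgfbr2 was 0.727 ± 0.050 (SD, n = 4) in wild-type and 0.783 ± 0.018 (SD, n = 3) in PROSER1 KO, with overlap. Smad7 to Smad4 was 0.254 ± 0.033 (SD, n = 4) and 0.217 ± 0.035 (SD, n = 3), also with overlap, as was Eng to Tgfbr3 at 8.24 ± 1.37 (SD, n = 4) and 7.66 ± 0.91 (SD, n = 3).

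Over the 7 libraries of both groups, pairs of members share the size factor of each library, and relations are given as a description. The strongest were those of Tgfbr1 with Smad7 (Pearson r = -0.774), Smad2 with Smad7 (r = -0.753), Tgfbr1 with Eng (r = 0.745) and Tgfbr2 with Eng (r = 0.703). The genes whose pattern was most like that of Tgfb1 were Dennd5a (r = 0.967), Cblb (r = 0.964) and Gga1 (r = 0.962), and those most like Thbs1 were Gm16861 (r = 0.962), 3110083C13Rik (r = 0.961) and Tmem161b (r = 0.961), in each case the 3 highest of 16251 genes.

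Around the 10 genes, 133 other genes of the TGF-beta superfamily were listed by role, and 107 had enough reads to be tested. Of these, 2 rose (Tgfbi and Postn) and 0 fell with limma, 5 were called with DESeq2 and 3 with edgeR, beside 0.258%, 0.873% and 0.246% of all genes tested with each. The groups did not overlap in 14 of 107 (13.1%), beside 10% of all genes, and the median log2 fold change was 0.0427, beside 0.00148. Both genes that rose were already known from these libraries when the list was written, so that they are no independent evidence of its direction.

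**Figure D4:**
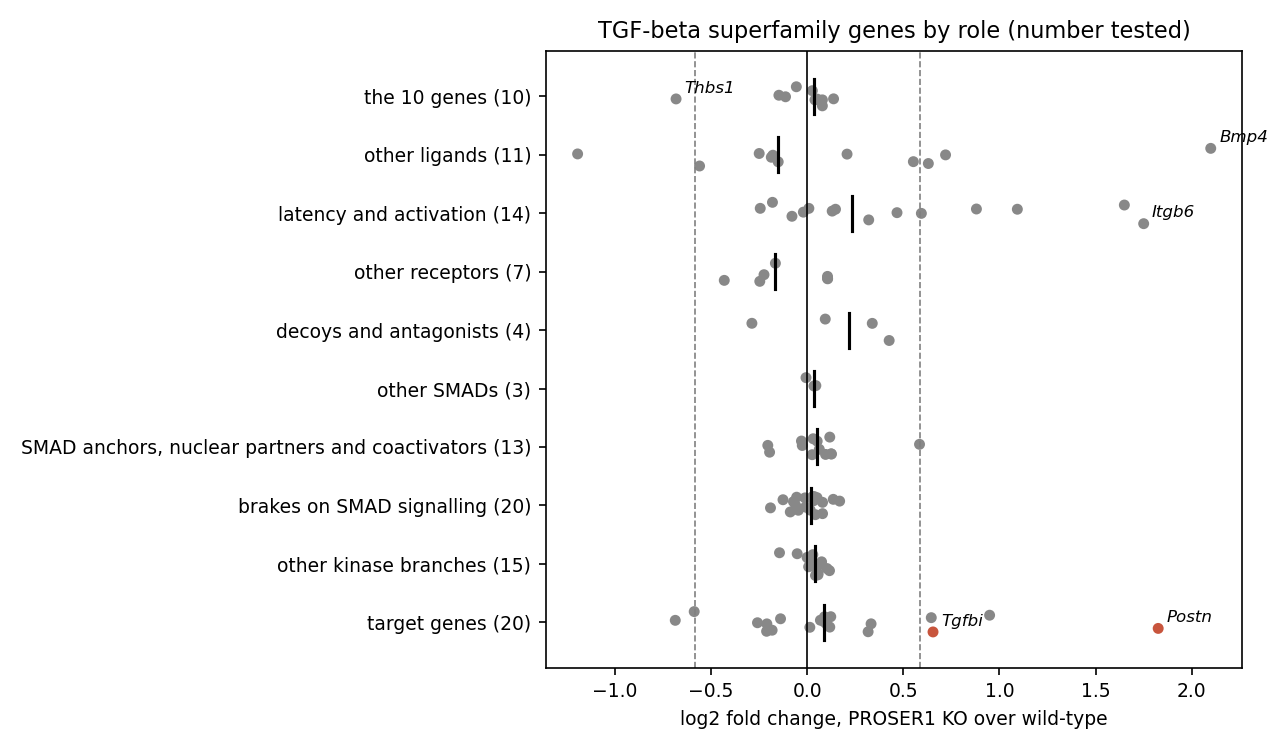
Log2 fold change of each tested gene, PROSER1 KO over wild-type (x axis), for the 10 genes and 9 lists of other pathway genes by role (rows, number tested in brackets), with black ticks at the medians, dashed lines at 1.5-fold and red points for genes called by limma. Red points are seen in the target genes alone (Tgfbi and Postn), and the 10 genes sit close to 0 apart from Thbs1.

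Among 11 other ligands, 0 passed the test with limma. Bmp4, a bone morphogenetic protein, had normalized counts of 16.3, 17.1, 5.75 and 18.5 in wild-type versus 79.3, 34.7 and 78.7 in PROSER1 KO. All PROSER1 KO libraries were above the wild-type range, with a log2 fold change of 2.10 (95% interval 1.03 to 3.17, adjusted p = 0.158 from limma and 0.00104 from DESeq2), at 5 to 82 read pairs. Bmp2, chosen after its values were seen, went the other way, with 61.5, 33.4, 51.7 and 40.6 against 19.8, 15.2 and 24.0 (log2 fold change -1.19, adjusted p = 0.228 from limma). Inha, the inhibin alpha subunit and the highest of these ligands per kb, was 86.4 ± 19.4 (SD, n = 4) and 75.6 ± 13.3 (SD, n = 3), a difference within the spread of replicates. Tgfb2 and Tgfb3, the other TGF-beta isoforms, reached 24.3 and 116 at most, far below Tgfb1 per kb of exon as well (4.204 and 34.3).

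Of the 14 genes for latency and activation of the ligand, 0 passed the test with limma, and Itgb6 was just short of it. Itgb6, the beta subunit of an integrin that releases TGF-beta1 from its propeptide, had 16.3, 19.8, 16.1 and 22.03 in wild-type against 83.5, 62.6 and 50.9 in PROSER1 KO. All PROSER1 KO libraries lay above the wild-type libraries, with means of 65.7 ± 16.5 (SD, n = 3) and 18.6 ± 2.86 (SD, n = 4). The log2 fold change was 1.75 (standard error 0.29, 95% interval 1.10 to 2.40, adjusted p = 0.0521 from limma, 0.0399 from edgeR and 0.000522 from DESeq2), at 14 to 80 read pairs. Its alpha partner Itgav stood at 1173 to 1368 with a log2 fold change of 0.01 (adjusted p = 0.981 from limma). Nrros, which tethers latent TGF-beta1 on myeloid cells and was the highest of the list per kb, was 7033 ± 442 (SD, n = 4) and 6939 ± 479 (SD, n = 3).

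Other receptors (7 tested), decoys and antagonists (4), other SMADs (3), SMAD anchors, nuclear partners and coactivators (13), brakes on SMAD signalling (20) and other kinase branches (15) held 0 genes past the test with limma, edgeR or DESeq2. Their median log2 fold changes were -0.165, 0.216, 0.0354, 0.0522, 0.0224 and 0.0433, in this order. Acvr1b, the activin type I receptor that also signals through SMAD2 and SMAD3, was 3915 ± 386 (SD, n = 4) and 4209 ± 336 (SD, n = 3), and Bmpr1a, a type I receptor for BMPs, 41.8 ± 13.3 (SD, n = 4) and 29.9 ± 5.13 (SD, n = 3), both with overlap. Of the antagonists, Fstl1, a follistatin-like protein, was 508 ± 42.8 (SD, n = 4) and 645 ± 80.8 (SD, n = 3) without overlap (adjusted p = 0.333 from limma), and Lefty1, an inhibitor of Nodal, 54.0 ± 7.27 (SD, n = 4) and 73.7 ± 17.4 (SD, n = 3). Smad5, a SMAD of the BMP branch, was 6094 ± 409 (SD, n = 4) and 6285 ± 386 (SD, n = 3).

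The brakes on SMAD signalling had log2 fold changes between -0.19 (Ppp1r15a) and 0.17. Strap, which holds SMAD7 at the receptor and was the highest of them per kb, was 6364 ± 319 (SD, n = 4) and 6550.5 ± 165 (SD, n = 3). Ppp1r15a (GADD34), a phosphatase subunit that SMAD7 brings to TGFBR1, had 2724, 1833, 947 and 1599.8 in wild-type compared with 1774, 1336 and 1294 in PROSER1 KO, with wild-type replicate 1 highest as for Smad7. The repressors Ski (adjusted p = 0.719 from limma) and Skil (0.977), and the ubiquitin ligases Smurf1 (0.733) and Smurf2 (0.823), did not pass the test either. Among nuclear partners, E2f4 was 3603 ± 125 (SD, n = 4) and 3529 ± 89.8 (SD, n = 3), and the adaptor Dab2 53.5 ± 23.2 (SD, n = 4) and 80.9 ± 31.6 (SD, n = 3). In the kinase branches, the GTPase Cdc42 was 15195 ± 666 (SD, n = 4) and 15282 ± 857 (SD, n = 3), and Tab1, the activator of the kinase TAK1, 1479 ± 58.8 (SD, n = 4) and 1342 ± 127 (SD, n = 3), with overlap.

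Of the 20 target genes tested with limma, 2 rose, 0 fell and 18 did not pass, and DESeq2 called 3, with Id2 lower. Postn, which encodes the matrix protein periostin, had 92.3, 86.5, 70.1 and 64.9 in wild-type versus 267, 245 and 328 in PROSER1 KO (log2 fold change 1.83, 95% interval 1.41 to 2.24, adjusted p = 0.00464 from limma). Tgfbi, another matrix protein and named for its induction by TGF-beta, had 533, 573, 529.9 and 434 and then 830.4, 857 and 749 (log2 fold change 0.65, 95% interval 0.41 to 0.89, adjusted p = 0.0483 from limma). In both, all PROSER1 KO libraries lay above all wild-type libraries, but the call of Tgfbi was lost with any 1 library left out (adjusted p between 0.0552 and 0.176 from limma). Postn lies on chromosome 3 (54361109 to 54391037), as does Proser1, the edited gene. The part of the edited locus and its flanking sequence in the Postn level was not tested. The sum of stromal and endothelial markers was 4654 to 6212 in PROSER1 KO against 3746 to 4810 in wild-type, with overlap. Pdgfrb was the highest of these markers in every library (1855 to 2901), whereas Col1a1, Col3a1, Pdgfra and Lepr reached 59.5 at most. Col1a2 stood at 101.8 to 195.9, and Cxcl12 ranged from 3.61 (wild-type replicate 2) to 357 (PROSER1 KO replicate 3). The part of such cells in the levels of Postn and Tgfbi was not tested.

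Other targets went either way and did not pass with limma. Id2, an inhibitor of helix-loop-helix factors that was chosen after its values were seen, had 1104, 720.3, 640.2 and 660 in wild-type against 523, 441 and 459 in PROSER1 KO, without overlap (log2 fold change -0.69, adjusted p = 0.213 from limma and 0.00177 from DESeq2). Klf10, a TGF-beta-inducible early gene also chosen after its values were seen, had 2004, 2792, 2605 and 2552 against 2910.5, 3132 and 3299 (adjusted p = 0.327 from limma, log2 fold change 0.33). The cell cycle inhibitors Cdkn1a and Cdkn1c had adjusted p-values of 0.710 and 0.648 from limma.

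**Figure D5:**
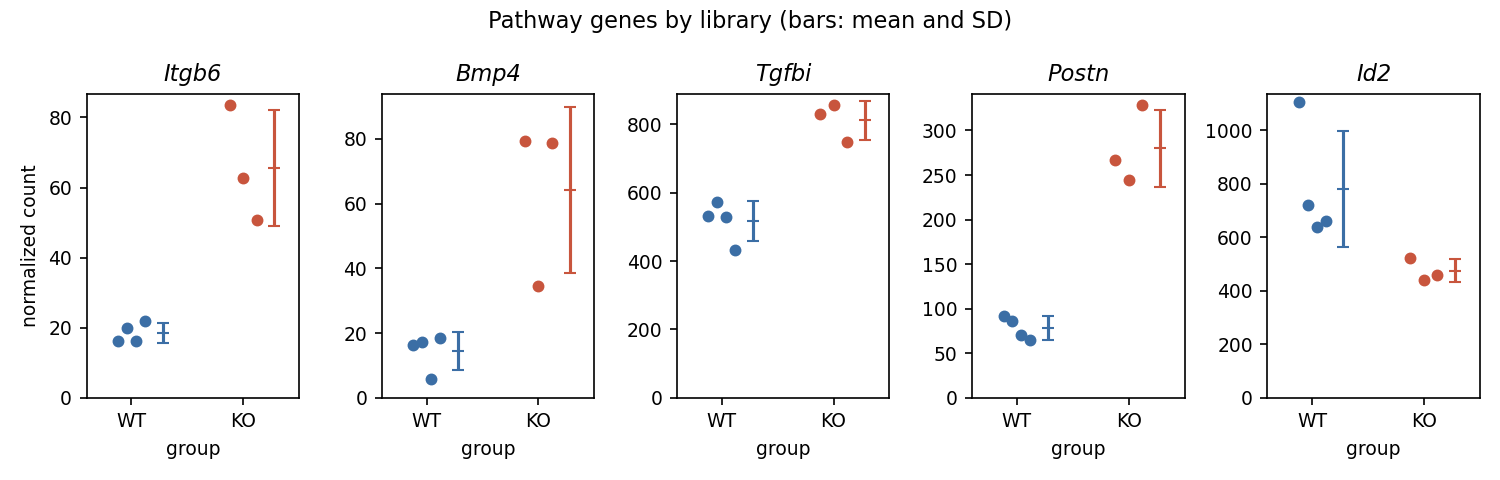
Normalized counts (y axis, from 0) of 5 pathway genes per library in wild-type (WT, n = 4) and PROSER1 KO (KO, n = 3), with bars for the mean and SD. The 5 genes were picked for large differences or with their values in view. That their groups do not overlap follows from this choice. Of the pathway genes tested, 14 of 107 did not overlap, beside 10% of all genes tested. Of the 5, limma called Tgfbi and Postn alone.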

How the data were processed

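RNA of LSK cells from BM chimeras made up 7 libraries, 4 wild-type and 3 PROSER1 KO, grouped as biological replicates by the labels. The authors used Trimmomatic for trimming, STAR for alignment to mm10, featureCounts for gene-level counts of read pairs and the size factors of DESeq2 for scaling (versions not given in the sources used here). The deposited values are this normalized signal per gene, without a filter on low values, and 100% of them gave whole read pairs within 0.01. The kit was directional, but the use of strand in counting is not stated.

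For the comparison, log2(normalized count + 1) of the 16251 genes that averaged 10 or more was fitted in R 4.3.3 by limma 3.58.1 (lmFit, eBayes with trend), adjusted by Benjamini-Hochberg over all of them, and fold changes of low genes are understated on this scale. Recovered read pairs in DESeq2 1.42.0 and in edgeR 4.0.16 (the quasi-likelihood test), other pseudocounts, filters, scalings and variance models, and omission of single libraries were alternatives. Libraries of 1 group differed beyond sampling noise (27.8 or more for chi-square over its degrees of freedom). Exact permutation tests were two-sided. The procedures were tested on simulated data. Positions, overlaps and exon lengths come from GENCODE M21 (GRCm38), upstream windows from RefSeq. Members, the pathway lists and the marker lists were chosen with earlier results of these data known. Beside the members, the text names in each role list the gene highest per kb and the gene with the largest log2 fold change, called genes, and genes stated to have been chosen after their values were seen. Tgfb2, Tgfb3, Itgav, Ski, Skil, Smurf1, Smurf2, Cdkn1a, Cdkn1c, Cdh5 and the other named stromal and endothelial markers were added for their known roles, also with values in view.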

Additional observations from a re-analysis of the deposited data

Results flagged for a closer look

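In 29 genes named in the text, each library of the wild-type group was compared with its nearest neighbor, and 2 genes had 1 library that stood apart; chance gives about 1 in 20. Smad7 was at 1294 normalized counts in wild-type replicate 1, against 992 to 1001 in the other 3 wild-type libraries. Dab2 was at 88.1 in wild-type replicate 4, against 39.4 to 44.8.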

How the results depend on the processing

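The count of the 10 genes called was 0 under all alternatives. Filters on low values and variance models cannot change a member's limma fold change, so its direction there was fixed in advance. The replicate block gave the members the same estimates as leaving out wild-type replicate 4, so these are not separate results. Of 180 fold changes of members under alternatives, 175 kept their direction, 0 passed the threshold and 5 changed sign. The latter were Tgfb1 with the replicate number as a block (-0.026), without wild-type replicate 4 (-0.026) and without PROSER1 KO replicate 1 (-0.0064), and Eng without wild-type replicate 1 (-0.00076) and without PROSER1 KO replicate 3 (-2.4e-05); with 1 library left out, the 2 genes ranged from -0.026 to 0.092 and from -0.00076 to 0.080. Over all genes, limma's 42 calls became 17 without the trend, 80 with robust variances and 165 with DESeq2, and 23 to 42 with 1 library left out (23 without PROSER1 KO replicate 2). The 2 called pathway genes became 1 with a minimum mean of 50, without the trend, with TMM or with any 1 library left out (range 1 to 1), and 5 with DESeq2 (Postn, Tgfbi, Itgb6 and Bmp4 higher, Id2 lower). With quantile normalization the count stayed at 2, but Tgfbi was lost (adjusted p = 0.0622 from limma) and Itgb6 passed. Itgb6 passed with a pseudocount of 10, robust variances and quantile normalization as well (adjusted p 0.0380, 0.0217 and 0.0442 from limma). It did not pass in any of the fits that each left out 1 library (adjusted p 0.0823 to 0.202 from limma). No pairing by replicate number was seen, with correlations of deviations of 0.0226, 0.0575 and -0.106 for the same number and -0.131 to 0.142 for different numbers. With so few libraries this check cannot settle whether samples were paired. With the replicate block limma called 35 genes, 26 of them among the 42, with 1 pathway gene and 0 members. The causes of these changes were not tested. For Thbs1, the counting error at its lowest depth of 43 read pairs (PROSER1 KO replicate 3) was 15.2%. The wild-type libraries, with 65 or more read pairs, varied by 58.9%, with replicate 4 far above the others.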
